A study of Mus musculus with 50 samples.

Results

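Spleens of untreated TNF-KO mice were compared with spleens of untreated control mice, both on the C57BL/6 background. TNF-KO means that the gene for tumour necrosis factor, Tnf, is knocked out, as the genotype label says; the control group is labelled only as C57BL/6 control. The samples are the 8 arrays whose titles name these groups, 4 TNF-KO and 4 control, of 50 arrays in the series. All mice were female by the labels, and none of the 8 had received an oligonucleotide. Age, the knockout allele and whether the controls were littermates are not given in the sources used here. In the wider study, mice were injected with CpG oligodeoxynucleotides (ODN), short synthetic DNAs that activate Toll-like receptor 9, or with control ODN, and took spleens after set times. A second set of 8 C57BL/6 arrays, 4 TNF-KO and 4 control, was taken 3 h after CpG ODN and is used below for comparison; their titles name CpG ODN while a second label field reads untreated, and the group was taken from the title.

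TNF is a cytokine made mainly by macrophages and lymphocytes that signals through the receptors TNFR1 and TNFR2, encoded by Tnfrsf1a and Tnfrsf1b, and switches on NF-kB target genes. In mouse spleen it is known for keeping the B cell follicle in order: follicular dendritic cell networks and germinal centres depend on it. The mouse spleen also makes red blood cells in its red pulp throughout life, so whole-spleen RNA holds transcripts of erythroid precursors beside those of lymphocytes, macrophages and stroma.

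Each value is a log2 ratio of spleen RNA over a common Universal Mouse Reference RNA, centred so that the median probe of an array is 0. A difference is TNF-KO minus control on that log2 scale, so -1 is a level 2 times lower in TNF-KO. A gene passed when its p, from limma fitted over the 16 C57BL/6 arrays and adjusted over the 14951 genes tested, was under 0.05. Over all genes the median difference was 0.03. The p-values measure the spread between arrays, which the series text calls independent experiments. In whole spleen, fewer cells of a type and less RNA per cell cannot be told apart.

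The labels name no array run. Runs were inferred here from the mAdbID numbers in the titles, sorted, with a new run at each gap over 10. By this rule 3 runs held 1 untreated TNF-KO and 1 untreated control array each. These were TNF-KO replicate 1 with control replicate 2, replicate 2 with replicate 3, and replicate 3 with replicate 4. TNF-KO replicate 4 and control replicate 1 had no untreated partner in their runs. Fits within the 3 shared runs therefore leave out both arrays, and are not independent of the fit without TNF-KO replicate 4. They also leave out the CpG-treated arrays, so their estimate of the spread rests on few degrees of freedom. TNF-KO replicate 4 stood apart from the other TNF-KO arrays in many of the genes below, and counts and leading genes that rest on it are given with and without it. Spleen identity held in all 8 arrays: the B cell list averaged between 3.21 and 3.72 in TNF-KO and between 3.14 and 3.48 in control spleens, and the red pulp macrophage list between 3.42 and 3.83 in TNF-KO and between 3.55 and 3.75 in control spleens. Exocrine pancreas genes, which mark tissue carried along with a spleen, averaged 6.41, 5.32, 2.60 and 5.77 in the TNF-KO spleens, against 6.31, 0.20, 0.81 and 5.94 in the control spleens. They were high in 5 spleens, lower in TNF-KO replicate 3 and lowest in control replicates 2 and 3, and none of the 20 measured passed. With their mean as a covariate, 59 genes passed in place of the 89 given below.

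The targeted gene was low in the TNF-KO spleens but was also low in the controls. Tnf read -0.61, -0.09, -0.29 and 0.09 in the TNF-KO spleens, against 0.78, 0.62, 0.78 and 0.58 in the control spleens. Every TNF-KO array lay below every control array. The difference of -0.91 ± 0.27 (SE; adjusted p = 0.154, limma) did not pass, and its 95% interval ran from -1.48 to -0.35. Within the 3 shared runs the difference was -0.99 and passed, with an adjusted p of 0.0423 in limma. No other alternative run passed. The same 6 untreated arrays without the run block, fitted together with the CpG-treated arrays, also gave -0.99 but an adjusted p of 0.161 in limma. The shared-run fit left the CpG-treated arrays out, so more than the run block differed. The run as a fixed block on all arrays gave -0.82 with 0.193. After CpG ODN, when control spleens carry much more Tnf, the same probe averaged -0.16 ± 0.40 in TNF-KO and 3.92 ± 0.65 in control spleens, a difference of -4.08 that passed (SD, n = 4 each; adjusted p = 1.3e-07, limma). Both sets of arrays ran in the direction of the genotype labels.

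The genes nearest to Tnf and the genes it signals through gave no call. Lta and Ltb, which flank Tnf and encode the lymphotoxin chains, differed by 0.34 and 0.26 (adjusted p = 0.725 and 0.771, limma). Of the 30 measured genes nearest to Tnf, 15 on each side, 0 passed, where 0.595% of all genes did. Their differences ran from -0.53 to 0.56. Outside this window, Cfb (-0.94) and Trim10 (-3.06) were lower and Epcam (0.92) higher, and passed. All lie on chromosome 17, as Tnf does. Whether this relates to the knockout was not tested. The receptor genes Tnfrsf1a and Tnfrsf1b differed by 0.18 and -0.15, with 95% intervals of -0.34 to 0.71 and -0.65 to 0.35. None of 42 measured TNF superfamily ligands and receptors, 27 components of TNF receptor signalling or 24 NF-kB pathway and target genes passed, with median differences of 0.15, 0.07 and 0.14. As 0.595% of all genes passed, no call in lists of this size is near the share over all genes. The smallest p of the superfamily after Tnf itself belonged to Tnfsf11, the ligand RANKL, at 1.88, 2.47, 2.30 and 1.70 in the TNF-KO spleens, against 0.96, 1.22, 1.75 and 1.21 in the control spleens; its difference of 0.80 ± 0.25 (SE; adjusted p = 0.175, limma) did not pass.

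Across all genes, 89 of 14951 passed, or 0.595%. Of these, 12 were higher in TNF-KO spleens, or 0.0803% of the genes tested, and 77 were lower, or 0.515%. Differences reached at least 2-fold for 9 of the higher and 69 of the lower genes. The falls ran from -4.30 to -0.77 and the rises from 0.83 to 2.97. All 12 rises, and 59 of the 77 falls, had TNF-KO and control arrays that did not overlap. Over the 14766 genes with at least 3 values in each group, 3% did not overlap with TNF-KO higher and 3.09% with TNF-KO lower. In 64 of the 77 falls the highest TNF-KO value was that of replicate 4, and in 51 the highest control value was that of replicate 1.

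**Figure D1:**
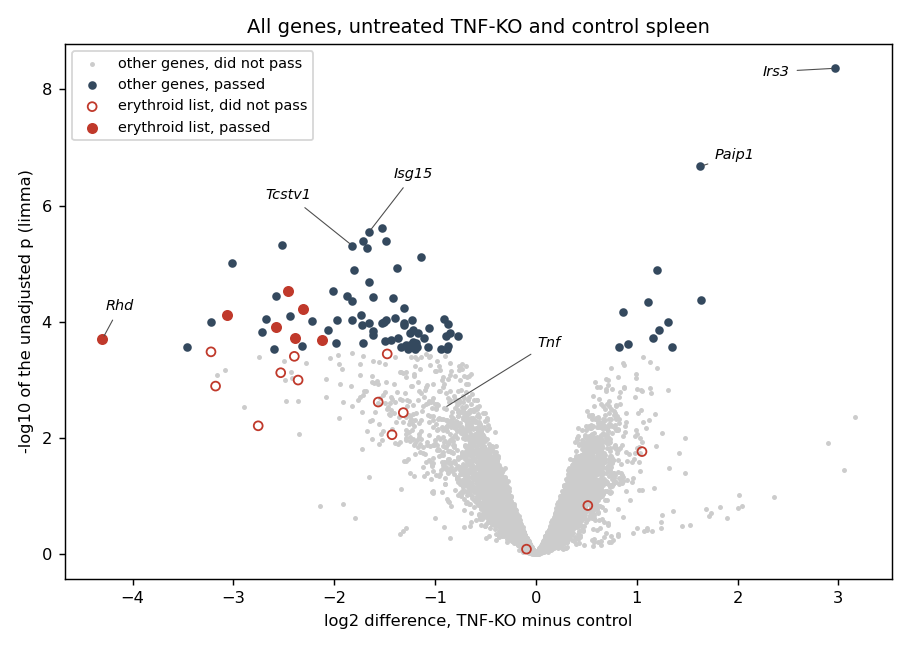
Each point is a gene, with the log2 difference of untreated TNF-KO minus untreated control spleen on the x axis and the -log10 of the unadjusted limma p on the y axis. Filled dark and red points passed at an adjusted p under 0.05, red marks the erythroid list, and Irs3 and Paip1 have the smallest p-values. The falls outnumber the rises, at 77 and 12.

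The number of calls turned on single arrays. Without TNF-KO replicate 4 it was 379, with 33 higher and 346 lower, or 2.54% of the genes tested, and 88 of the 89 genes were among them. Without TNF-KO replicates 1, 2 or 3 it was 8, 10 and 2, and without control replicates 1, 2 or 4 it was 10, 11 and 25. Without control replicate 3 it was 71, with 62 of the 89 among them. Within the 3 runs that held both groups, 308 genes passed, 28 higher and 280 lower, which is 2.06%. Irs3 and Paip1 passed in each of these fits, and they were the only 2 genes that passed without TNF-KO replicate 3.

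Genes of red cell precursors were lower in TNF-KO spleens. Of 20 measured members of a 24-gene erythroid list, 7 fell and none rose, against 0.515% of all genes that fell. The median difference of the 20 was -2.37, beside 0.03 over all genes, and 18 of them lay below 0, where 44.9% of all genes did. Without TNF-KO replicate 4, 17 fell and 1 rose with a median of -2.99, where 2.31% of all genes fell. Within the shared runs, which also leave out replicate 4, 17 fell and 1 rose with a median of -2.69, where 1.87% of all genes fell. Without TNF-KO replicates 1, 2 or 3, or without control replicates 1 or 2, none of the 20 passed, with medians between -2.23 and -2.06; without control replicate 3 it was 5, and without control replicate 4 it was 1. With the pancreas mean as a covariate 4 fell. None passed when the 8 arrays were fitted alone, where the median was again -2.37, or when the arrays were scaled to the same spread, where it was -2.12. With every array kept, 13 fell with the run as a fixed block, and also as a random block. The same count fell with the replicate number as a block and with array weights. Of all genes, 1.54%, 1.18%, 1.06% and 1.26% passed in these fits.

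Seen array by array, the difference lay in TNF-KO replicates 1 to 3. The mean of the 18 erythroid genes with a value on every array was 1.70, 1.59, 1.57 and 4.01 in the TNF-KO spleens, against 4.64, 4.79, 3.84 and 3.85 in the control spleens. TNF-KO replicates 1 to 3 lay more than 2 log2 units below every control, and replicate 4 lay within the control range. For 17 of the 20 genes, every value of TNF-KO replicates 1 to 3 was below every control array, and for 16 of the 20 replicate 4 was inside the control range. Epb42, 1 of the 17, had no value on TNF-KO replicate 1. Untreated spleens of the other strain in the series, BALB/c, averaged between 3.45 and 4.09 over the same genes on 6 arrays.

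**Figure D2:**
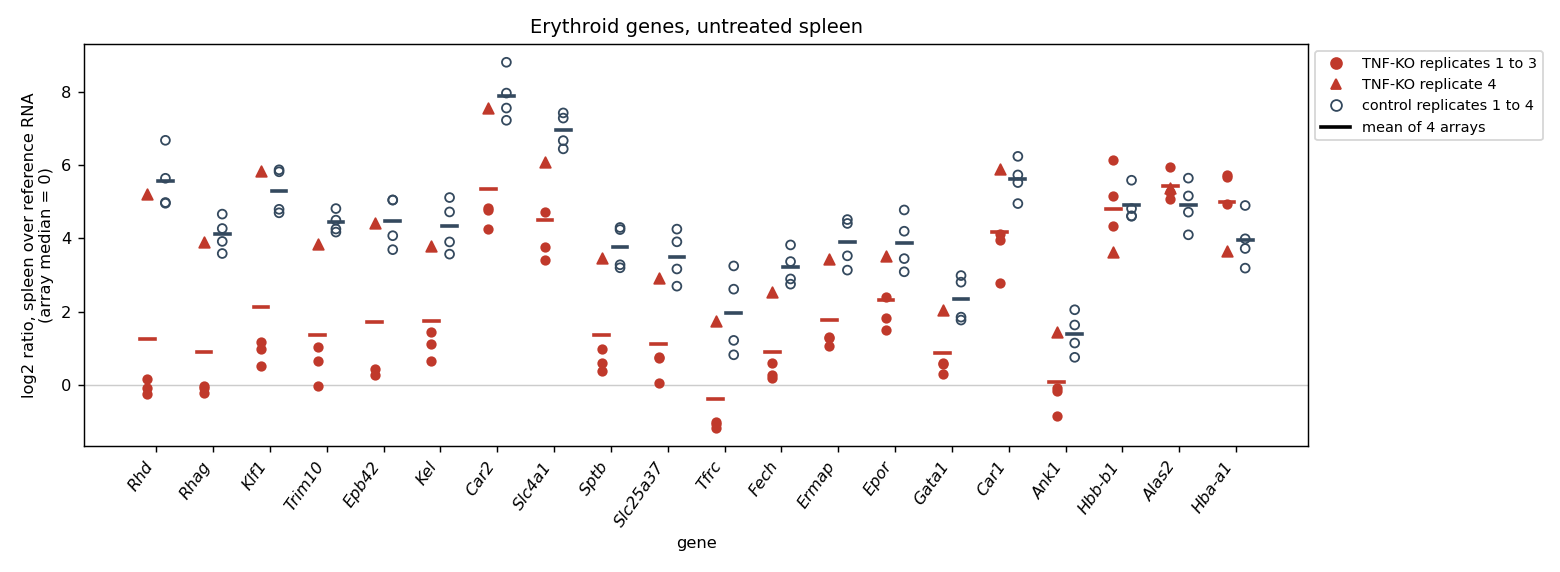
Log2 ratio of spleen over reference RNA (y axis, array median 0) for the 20 measured erythroid genes, ordered by their difference, with TNF-KO arrays left (filled) and control arrays right (open) and bars for the mean of 4 arrays. TNF-KO replicate 4, the triangle, sits with the controls for most genes, while TNF-KO replicates 1 to 3 sit below them except for Hbb-b1, Alas2 and Hba-a1. Epb42 has no value on TNF-KO replicate 1.

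Surface antigens and membrane proteins of the red cell made up most of the members that fell. Rhd, which encodes the Rh blood group protein, read 0.17, -0.07, -0.25 and 5.22 in the TNF-KO spleens, against 6.68, 5.64, 4.98 and 4.96 in the control spleens. It had the largest fall of all named genes, a difference of -4.30 ± 0.93 (SE; adjusted p = 0.0453, limma), and without TNF-KO replicate 4 the difference was -5.62. Slc4a1, the band 3 anion exchanger and main integral protein of the red cell membrane, read 4.71, 3.76, 3.41 and 6.09 in the TNF-KO spleens, against 7.43, 7.29, 6.67 and 6.45 in the control spleens. Here even replicate 4 lay below every control, and the difference was -2.46 ± 0.45 (SE; adjusted p = 0.026, limma). A further Slc4a1 probe gave only -0.38, so the size depends on the probe.

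Kel, the Kell blood group protease, read 0.66, 1.44, 1.12 and 3.78 in the TNF-KO spleens, against 5.12, 4.72, 3.57 and 3.90 in the control spleens, a difference of -2.58 ± 0.53 (SE; adjusted p = 0.0377, limma). Ermap, an erythroblast membrane protein that carries the Scianna antigen in humans, fell by 2.12 (adjusted p = 0.0453, limma), with replicate 4 at 3.43 inside the control range of 3.13 to 4.51. Rhag, the partner of the Rh protein, did not pass, at -0.22, -0.09, -0.04 and 3.90 in the TNF-KO spleens, against 4.27, 4.66, 3.59 and 3.92 in the control spleens (adjusted p = 0.0538, limma). Its TNF-KO replicates 1 to 3 lay far below the controls and replicate 4 among them, and without replicate 4 it passed with -4.23.

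Among genes of iron and haem supply, 2 fell. Slc25a37, mitoferrin-1, carries iron into the mitochondria of erythroblasts and read 0.75, 0.05, 0.77 and 2.91 in the TNF-KO spleens, against 4.25, 3.91, 2.70 and 3.17 in the control spleens, a difference of -2.39 ± 0.51 (SE; adjusted p = 0.0449, limma). Fech, ferrochelatase, inserts iron into the haem ring and read 0.59, 0.19, 0.27 and 2.53 in the TNF-KO spleens, against 3.82, 3.37, 2.75 and 2.89 in the control spleens, a difference of -2.31 ± 0.45 (SE; adjusted p = 0.0342, limma). All 4 TNF-KO arrays of Fech lay below all controls, and its other 2 probes differed by -1.83 and -1.72. Tfrc, the transferrin receptor, differed by -2.36 and did not pass (adjusted p = 0.0893, limma); without TNF-KO replicate 4 it passed with -3.06.

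Trim10, a gene of terminal erythroid differentiation, read 1.03, 0.66, -0.03 and 3.84 in the TNF-KO spleens, against 4.17, 4.50, 4.81 and 4.26 in the control spleens, a difference of -3.06 ± 0.60 (SE; adjusted p = 0.0353, limma). The groups did not overlap, and its second probe gave -3.28. The erythroid transcription factors did not pass in the main fit with all 8 arrays: Klf1 read 0.97, 0.50, 1.16 and 5.84 in the TNF-KO spleens, against 5.82, 5.87, 4.70 and 4.80 in the control spleens, where replicate 4 was as high as the highest controls. Gata1 differed by -1.48 (adjusted p = 0.0565, limma). Without replicate 4, Klf1 and Gata1 passed with -4.42 and -1.86. Of 24 alternatives, each at its own threshold, Klf1 passed in 7, Gata1 in 10, Rhag in 9 and Tfrc in 8. Some of these fits kept replicate 4. The 7 members that fell with all arrays passed there too, with differences from -5.62 for Rhd to -2.67 for Ermap.

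The globin genes and Alas2, which encodes the first enzyme of haem synthesis in red cells, did not follow the rest; these were picked out after their values were seen. Hba-a1, alpha globin, read 5.68, 4.95, 5.73 and 3.65 in the TNF-KO spleens, against 3.19, 4.90, 3.72 and 3.99 in the control spleens, and the groups overlapped. Its difference of 1.05 ± 0.40 (SE; adjusted p = 0.302, limma) did not pass, and without replicate 4 it was 1.50 and passed as higher. Hbb-b1, beta globin, read 5.15, 4.33, 6.13 and 3.64 in the TNF-KO spleens, against 4.62, 5.59, 4.60 and 4.81 in the control spleens and differed by -0.09. Alas2 read 5.96, 5.07, 5.27 and 5.37 in the TNF-KO spleens, against 4.10, 5.65, 5.16 and 4.72 in the control spleens, with a difference of 0.51 (95% interval -0.19 to 1.22).

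Of the 7 erythroid genes that fell, 4 matched the RefSeq promoter table, Rhd, Kel, Trim10 and Ermap, and 3 of these 4 held the letters AGATAA, or TTATCT on the other strand, in the 250 bases before the gene start. AGATAA is a common form of the site bound by GATA factors. Over the 27025 promoters in the RefSeq table (GRCm38.p6, 1 window per gene symbol) 10.3% held it, and over the measured genes with a window 7.17%. It was found in 6 of the 13 erythroid members with a window; Ermap held no match. The 3 windows are shown because they belong to members that fell and hold the motif, which is in capitals; each is written 5′ to 3′ on the strand of its gene. Rhd lies at chr4:134864286-134864535 (plus strand, motif from base 43 before the start), Kel at chr6:41704326-41704575 (minus strand, base 56) and Trim10 at chr17:36869324-36869573 (plus strand, base 163).
Rhd: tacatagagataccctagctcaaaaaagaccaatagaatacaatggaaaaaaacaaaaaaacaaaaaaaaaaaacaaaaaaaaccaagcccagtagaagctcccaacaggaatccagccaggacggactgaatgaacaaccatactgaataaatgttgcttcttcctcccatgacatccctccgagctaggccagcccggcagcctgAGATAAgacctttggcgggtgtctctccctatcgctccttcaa
Kel: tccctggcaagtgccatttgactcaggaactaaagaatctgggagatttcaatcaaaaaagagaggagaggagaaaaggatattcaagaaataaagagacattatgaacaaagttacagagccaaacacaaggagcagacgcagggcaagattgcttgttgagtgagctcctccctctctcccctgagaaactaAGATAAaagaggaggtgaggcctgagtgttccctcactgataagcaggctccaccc
Trim10: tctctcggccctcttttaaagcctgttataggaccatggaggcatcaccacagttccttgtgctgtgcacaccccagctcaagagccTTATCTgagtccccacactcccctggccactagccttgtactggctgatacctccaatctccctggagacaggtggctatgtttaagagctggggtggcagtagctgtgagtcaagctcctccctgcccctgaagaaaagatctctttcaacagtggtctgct
These matches describe the letters in the windows and were not tested against binding data.

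Of the 77 genes that fell, 63 were in none of the 31 lists. By the rule for named genes, the 15 largest falls were Rhd, Irs4, Ctse, Trim10, Rsad2, Fn3k, Pdzk1ip1, Dhrs11, Kel, Sncg, Slc4a1, Hemgn, Slc25a37, Cdr2 and Fech. Irs4, insulin receptor substrate 4, read 0.52, 0.24, 0.76 and 5.03 in the TNF-KO spleens, against 5.51, 5.36, 4.62 and 4.91 in the control spleens; replicate 4 lay inside the control range, and a second probe of the gene gave only -0.24. Ctse, the aspartic protease cathepsin E, read 0.71, 0.90, 1.46 and 4.50 in the TNF-KO spleens, against 5.42, 5.92, 4.33 and 4.79 in the control spleens, again with replicate 4 among the controls. Hemgn, hemogen, a nuclear protein of blood-forming cells, read 0.48, 0.43, 0.61 and 3.07 in the TNF-KO spleens, against 3.99, 4.08, 2.92 and 3.38 in the control spleens. Its difference was -2.44 ± 0.48 (SE; adjusted p = 0.0353, limma), and its second probe gave 0.51.

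Fn3k, which removes sugar adducts from proteins, fell by 2.67, Pdzk1ip1 by 2.60, Dhrs11 by 2.58 and Cdr2 by 2.32. In the first 3 of these replicate 4 was more than 2 log2 units above the other TNF-KO arrays. Sncg, gamma-synuclein, read 1.85, 0.92, 0.93 and 3.07 in the TNF-KO spleens, against 4.49, 4.56, 3.75 and 4.02 in the control spleens. All 4 TNF-KO arrays were below all controls, and the difference was -2.51 ± 0.39 (SE; adjusted p = 0.00874, limma). It was one of the more stable falls, losing its call only without TNF-KO replicate 3 among the fits that left out 1 array (adjusted p = 0.0567, limma). Each of the other 14 lost its call in at least 5 of these 8 fits, with adjusted p-values up to 0.205, and kept its direction in all of them. Without TNF-KO replicate 4 all 15 passed, with differences from -5.62 for Rhd to -2.86 for Fech; Irs4 gave -4.60, Ctse -4.09 and Hemgn -3.08.

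Among the smaller falls, 3 are named after their values were seen. Ackr1, the Duffy antigen, read -0.05, -0.03, 0.01 and 0.70 in the TNF-KO spleens, against 2.17, 2.23, 0.59 and 1.59 in the control spleens, and control replicate 3 was below TNF-KO replicate 4. Tmod1, tropomodulin, which caps actin filaments of the red cell skeleton, fell by 2.06 and Bcl2l1, which encodes the survival factor Bcl-xL, by 1.72. In both, TNF-KO replicate 4 overlapped the controls.

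Cell cycle genes read lower on the same arrays without passing in the main fit. Of 23 measured, 0 passed in the main fit with all 8 arrays, and 22 lay below 0, where 44.9% of all genes did, with a median of -0.59. With every array kept, 7 fell with the run as a fixed block, where 1.54% of all genes passed. It was 3 with the run as a random block, 4 with the replicate number as a block and 3 with array weights. Of all genes, 1.18%, 1.06% and 1.26% passed there. None fell with the 8 arrays alone, with equal spread or with the pancreas covariate. Without TNF-KO replicate 4, 10 fell with a median of -0.98, where 2.31% of all genes fell. Within the shared runs, which also leave out replicate 4, 8 fell, where 1.87% did. Their mean per array was -1.53, -1.56, -1.37 and -0.30 in the TNF-KO spleens, against -0.08, -0.15, -0.74 and -0.62 in the control spleens. TNF-KO replicates 1 to 3 were below every control and replicate 4 was within the control range, the same split as for the erythroid mean. Mki67, the proliferation antigen Ki-67, read -2.79, -2.56, -2.98 and 0.36 in the TNF-KO spleens, against 1.60, 0.60, -0.49 and 0.28 in the control spleens (difference -2.49 ± 0.64 (SE; adjusted p = 0.0893, limma)), and without replicate 4 it passed with -3.27. Ube2c, a ubiquitin enzyme of mitosis, read -1.17, -0.98, -0.93 and 0.05 in the TNF-KO spleens, against 0.77, 0.38, 0.37 and 0.26 in the control spleens, where all TNF-KO arrays lay below all controls but the adjusted p was 0.0575 in limma; without replicate 4 it passed with -1.47.

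With all 8 arrays, neutrophil and platelet genes gave a single call, a fall, where 0.515% of all genes fell. Of 20 neutrophil genes 1 fell, Itgb2l, a beta integrin, at -0.30, 0.33, 0.64 and 0.60 in the TNF-KO spleens, against 2.37, 1.05, 1.33 and 1.50 in the control spleens (difference -1.25 ± 0.26 (SE; adjusted p = 0.0412, limma)); its second probe gave -0.17, and 7 of the 8 fits that left out 1 array lost the call (adjusted p up to 0.161). The list's median was -0.53. Within the shared runs 4 fell, with a median of -0.64, where 1.87% of all genes fell. Its mean per array was 1.89, 1.79, 1.37 and 2.60 in the TNF-KO spleens, against 2.54, 2.25, 2.38 and 2.20 in the control spleens. TNF-KO replicates 1 to 3 lay below every control and replicate 4 above every control. Camp, a granule antimicrobial peptide, differed by -1.21 without passing (adjusted p = 0.429, limma), and it passed only within the shared runs among the alternatives run (adjusted p = 0.00734, limma). All 11 platelet genes lay below 0, where 44.9% of all genes did, with a median of -0.48, but 0 passed. Without TNF-KO replicate 4, 1 fell, where 2.31% of all genes fell. Their mean per array was 1.23, 1.07, 0.90 and 1.08 in the TNF-KO spleens, against 1.75, 1.45, 1.31 and 1.63 in the control spleens. The groups did not overlap, and replicate 4 was here like the other TNF-KO arrays. Treml1, a receptor of platelet granules, had the smallest p of the list, at 0.53, 0.12, 0.16 and 0.58 in the TNF-KO spleens, against 1.49, 1.06, 1.19 and 1.00 in the control spleens (adjusted p = 0.0758, limma).

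**Figure D3:**
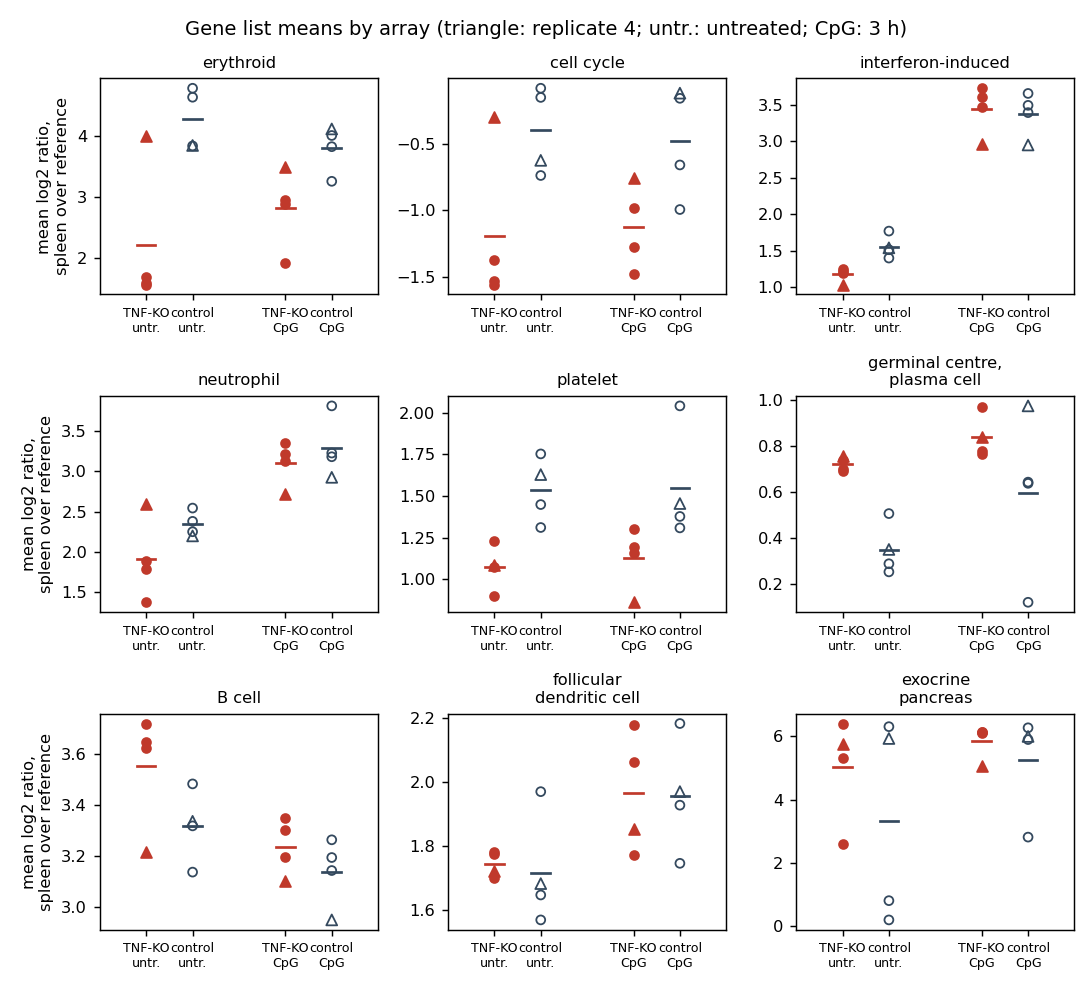
Mean log2 ratio of spleen over reference RNA (y axis, own range in each panel) of 9 gene lists on each array, with untreated TNF-KO and control arrays on the left and CpG-treated ones on the right; horizontal bars are means of 4 arrays and triangles are replicate 4 of each group. In untreated spleen TNF-KO replicate 4 is among the controls for the erythroid and cell cycle lists but with the other TNF-KO arrays for the interferon-induced and platelet lists. Untreated, the pancreas list spans 2.60 to 6.41 in TNF-KO spleens and 0.20 to 6.31 in control spleens.

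Interferon-induced genes held the second group of falls. Of 33 measured, 4 fell and 0 rose, against 0.515% of all genes that fell: Rsad2, Isg15, Isg20 and Oasl2. The median of the list was -0.12, close to the 0.03 of all genes, and 7 of the 33 did not overlap with TNF-KO lower, against 3.09% of all genes. Without TNF-KO replicate 4, 4 fell, where 2.31% of all genes did, and within the shared runs 4, where 1.87% did. Without TNF-KO replicates 1, 2 or 3 it was 1, 1 and 0, without control replicates 1 or 2 it was 1 each, and with the run as a fixed block 2 fell and 1 rose. None of the 33 passed with the 8 arrays fitted alone, and 2 fell with equal spread and 2 with the pancreas covariate. The mean of the 32 genes with all values was 1.22, 1.24, 1.19 and 1.03 in the TNF-KO spleens, against 1.77, 1.51, 1.40 and 1.54 in the control spleens, so that no TNF-KO spleen reached the lowest control.

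Isg15, a ubiquitin-like protein that interferon induces, read 0.33, -0.06, -0.07 and 1.15 in the TNF-KO spleens, against 2.52, 1.95, 1.65 and 1.87 in the control spleens. All TNF-KO values lay below all control values, with a difference of -1.66 ± 0.25 (SE; adjusted p = 0.00874, limma), and the adjusted p ranged from 6.17e-05 to 0.0567 over the fits that left out 1 array. Rsad2, the antiviral enzyme viperin, read 2.08, 1.81, 1.52 and 3.98 in the TNF-KO spleens, against 6.56, 5.55, 4.64 and 4.69 in the control spleens. The groups did not overlap, and the difference was -3.02 ± 0.50 (SE; adjusted p = 0.0134, limma). Isg20, an antiviral exonuclease, read 0.69, 1.11, 1.26 and 1.93 in the TNF-KO spleens, against 3.12, 2.79, 2.25 and 2.07 in the control spleens, a difference of -1.31 ± 0.27 (SE; adjusted p = 0.0353, limma). Oasl2, a member of the oligoadenylate synthetase family, read 0.38, 0.26, 0.40 and 0.67 in the TNF-KO spleens, against 1.95, 1.89, 1.35 and 1.31 in the control spleens. Its groups did not overlap, but its adjusted p of 0.0497 in limma was just under the threshold. Rsad2 and Isg20 lost their call in 5 of the 8 fits that left out 1 array and Oasl2 in 7, with adjusted p-values up to 0.0757, 0.141 and 0.184. Without TNF-KO replicate 4 all 4 genes passed, with differences from -3.56 for Rsad2 to -1.28 for Oasl2. After CpG ODN, 0 of the 33 passed, and the list averaged between 2.96 and 3.73 in TNF-KO and between 2.95 and 3.66 in control spleens. The difference between the genotype effects did not pass for any of the 4, with adjusted p-values from 0.383 to 0.467 in limma.

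Follicle genes did not pass in either direction. Of 19 measured markers of follicular dendritic cells and follicle stroma 0 passed, which is near the 0.595% of all genes that passed. Their median was -0.07, with members between -0.49 and 0.62. Cxcl13, the chemokine that draws B cells into follicles, read 3.56, 5.21, 4.72 and 5.02 in the TNF-KO spleens, against 5.08, 4.87, 3.99 and 4.91 in the control spleens. The control values lay inside the TNF-KO range, and the 95% interval of the difference ran from -0.96 to 0.78. Cr2, complement receptor 2 of B cells and follicular dendritic cells, differed by 0.23 (95% interval -0.27 to 0.73), while its second probe gave 0.91 and the mean of both probes 0.57, which did not pass. Madcam1, an adhesion molecule of marginal sinus lining cells, differed by -0.40 (95% interval -1.05 to 0.25) and Mfge8, which helps clear dying B cells, by -0.05 (95% interval -0.64 to 0.54). Fcer2a, CD23 of follicular B cells, read 2.39, 2.11, 1.38 and 2.16 in the TNF-KO spleens, against 2.08, 3.13, 2.69 and 2.58 in the control spleens, and its difference of -0.61 ± 0.27 (SE; adjusted p = 0.39, limma) did not pass.

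A chemokine of the T cell zone fell. Ccl21b, which attracts naive T cells and dendritic cells, read 3.21, 3.82, 3.36 and 2.88 in the TNF-KO spleens, against 4.55, 4.14, 4.62 and 4.23 in the control spleens. All TNF-KO values were lower, with a difference of -1.07 ± 0.24 (SE; adjusted p = 0.0489, limma); the call was lost in each of the 8 fits that left out 1 array, where the adjusted p ranged from 0.0566 to 0.171. Ccl21a, its near-identical relative, differed by -0.59 without passing (adjusted p = 0.356, limma), and probes may not tell the copies apart. Ccl19, the second ligand of the same receptor, differed by -0.37 (adjusted p = 0.474, limma); after CpG ODN it was lower in TNF-KO by 0.89 and passed (adjusted p = 0.0426, limma). Of the 17 complement genes 1 fell, where 0.515% of all genes did. Cfb, complement factor B, read 3.64, 3.98, 3.26 and 4.21 in the TNF-KO spleens, against 4.97, 4.50, 4.55 and 4.84 in the control spleens. Its difference was -0.94 ± 0.21 (SE; adjusted p = 0.0497, limma), and the call was lost in 7 of the 8 fits (adjusted p up to 0.208).

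**Figure D4:**
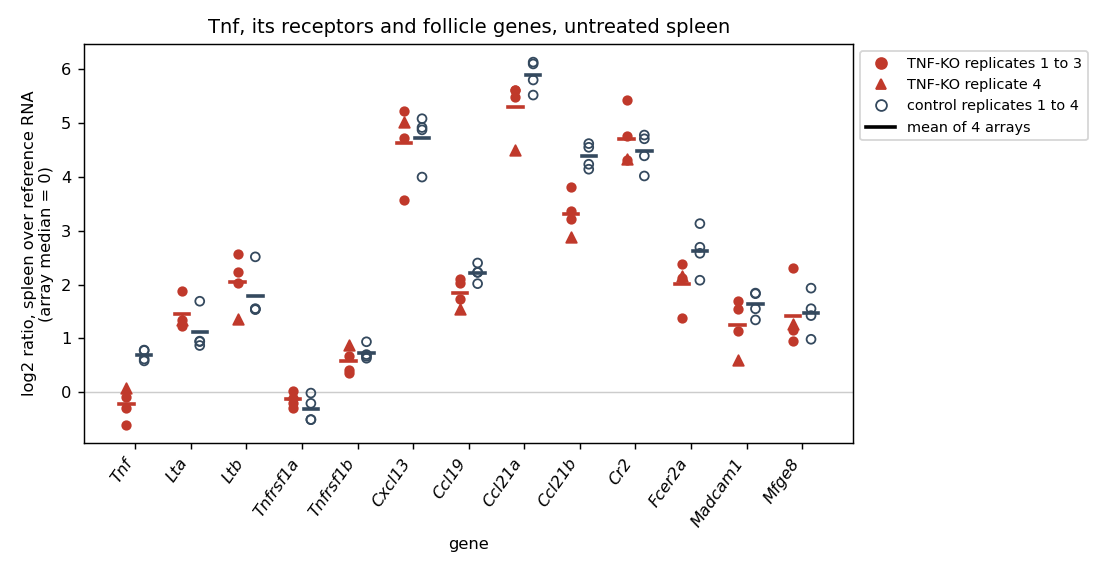
Log2 ratio of spleen over reference RNA (y axis, array median 0) of Tnf, its receptors, the lymphotoxin genes and follicle and T cell zone genes on the 8 untreated arrays, with TNF-KO left (filled, replicate 4 as a triangle), control right (open) and bars for means of 4 arrays. Tnf and Ccl21b separate the groups, with means of -0.22 and 3.32 in TNF-KO against 0.69 and 4.38 in control spleens, while Cxcl13, Cr2 and Mfge8 overlap.

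B lineage genes lay slightly above 0 without passing. Of 18 B cell genes 0 passed, with a median of 0.36, and Cd22, an inhibitory receptor of B cells, had the smallest p at 4.66, 3.52, 4.02 and 3.51 in the TNF-KO spleens, against 2.03, 2.89, 3.61 and 3.13 in the control spleens (adjusted p = 0.164, limma). Of 17 germinal centre and plasma cell genes 0 passed, with a median of 0.31; their mean per array was 0.69, 0.70, 0.74 and 0.76 in the TNF-KO spleens, against 0.51, 0.29, 0.25 and 0.35 in the control spleens. The TNF-KO spleens were all above the controls here. Ighg1, the IgG1 heavy chain, read 4.70, 3.61, 5.59 and 4.99 in the TNF-KO spleens, against 3.48, 3.33, 3.11 and 3.72 in the control spleens, a difference of 1.31 ± 0.35 (SE; adjusted p = 0.11, limma) that did not pass. In all, 26 of the 31 lists had no member that passed, where 0.595% of all genes passed. Those for T cells, natural killer cells, dendritic cells, monocytes, red pulp macrophages, the marginal zone, cytokines and immediate early genes were among them.

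The rises were few and spread over unrelated genes. Irs3, insulin receptor substrate 3, an adaptor of insulin signalling in rodents, read 2.42, 2.73, 2.75 and 2.62 in the TNF-KO spleens, against -0.38, -0.43, -0.21 and -0.32 in the control spleens. The spread within each group was small, 0.15 in TNF-KO and 0.09 in control spleens (SD, n = 4 each), and the difference was 2.97 ± 0.28 (SE; adjusted p = 6.5e-05, limma). It passed in each alternative run and in each fit that left out 1 array, where the adjusted p ranged from 5.56e-05 to 0.000669. Paip1, which binds the poly(A)-binding protein and promotes translation, read 0.11, 0.03, 0.05 and 0.14 in the TNF-KO spleens, against -1.43, -1.38, -1.52 and -1.87 in the control spleens, a difference of 1.63 ± 0.20 (SE; adjusted p = 0.00158, limma). It too passed in every fit that left out 1 array, with an adjusted p from 0.000443 to 0.0132.

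Ccr1, a chemokine receptor of myeloid cells, read 1.34, 1.76, 1.82 and 1.87 in the TNF-KO spleens, against 0.38, 0.86 and 0.26 in the control spleens, with no value on control replicate 2. Its difference was 1.20 ± 0.20 (SE; adjusted p = 0.0135, limma), and without TNF-KO replicates 2 or 3 or control replicates 1 or 4 it no longer passed (highest adjusted p = 0.106). The nearby gene Ccr2, for the receptor that marks inflammatory monocytes, read 3.52, 3.81, 3.34 and 4.17 in the TNF-KO spleens, against 2.52, 2.42, 2.78 and 2.87 in the control spleens. The groups did not overlap but the adjusted p was 0.0575 in limma. Ctsc, cathepsin C, which activates serine proteases of granules, read 5.81, 6.50, 6.11 and 5.82 in the TNF-KO spleens, against 5.08, 3.93, 5.17 and 4.66 in the control spleens, a difference of 1.35 ± 0.30 (SE; adjusted p = 0.0489, limma), while its second probe gave -0.19. Igkv12-38, an immunoglobulin kappa variable segment, read 4.51, 4.14, 4.96 and 4.06 in the TNF-KO spleens, against 2.60, 3.15, 2.40 and 2.98 in the control spleens (difference 1.63 ± 0.31 (SE; adjusted p = 0.028, limma)), and probes for such segments can bind related ones.

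G6pc, the glucose-6-phosphatase of liver and kidney, read 1.77, 1.79, 2.07 and 2.06 in the TNF-KO spleens, against 0.93, 0.36, 0.64 and 0.90 in the control spleens, a difference of 1.22 ± 0.25 (SE; adjusted p = 0.0402, limma). The remaining rises were Phlda3, a p53-induced inhibitor of Akt (1.31), Mapk12, a p38 kinase (1.16), Foxred1, a mitochondrial complex I assembly factor (1.11), Epcam, an epithelial adhesion molecule (0.92), Stip1, a co-chaperone of Hsp70 and Hsp90 (0.86), and Tmem169 (0.83). The other 2 probes of Mapk12 gave 0.63 and 0.66, and the other 3 of Foxred1 between 0.50 and 0.68. Apart from Irs3 and Paip1, each rise lost its call in at least 4 of the 8 fits that left out 1 array, with the highest adjusted p between 0.106 and 0.201.

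The 8 C57BL/6 arrays taken 3 h after CpG ODN, which share no array with the untreated ones, gave the same direction for most of the genes that passed. There, 55 genes passed, or 0.368% of those tested, 45 higher (0.301%) and 10 lower (0.0669%). Of the 77 untreated falls 73 lay below 0 after CpG ODN, where 42.2% of all genes did. The median of the 77 was -0.66, beside -1.53 in untreated spleen. The genes were chosen on the untreated values, so these medians cannot show whether the difference was smaller after CpG ODN. Of the 12 rises 10 lay above 0. The difference between the 2 genotype effects passed for 1 of the 89 genes, Stip1, beside 0.0268% of all genes. An unadjusted limma p under 0.05 was found for 48 of the 89, and for 1199 of all 14951 genes. The 89 were chosen on the untreated difference, which is part of this contrast, so the 48 cannot be read against that share. Stip1 averaged -0.72 ± 0.16 in TNF-KO and -1.58 ± 0.13 in control spleens untreated and -1.12 ± 0.16 in TNF-KO and -0.56 ± 0.30 in control spleens after CpG ODN (SD, n = 4 each), so that the effects differed by -1.42 (adjusted p = 0.042, limma).

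None of the 20 erythroid genes passed after CpG ODN. As in untreated spleen 18 lay below 0, where 42.2% of all genes did, and the median was -1.08, beside 0.06 over all genes. For the 7 that fell in untreated spleen, the difference between the genotype effects had adjusted p-values from 0.475 to 0.904 in limma and was not past the threshold. The per-array mean lay between 1.92 and 3.50 in TNF-KO and between 3.26 and 4.12 in control spleens, and the ranges overlapped. Trim10 averaged 1.31 ± 1.07 in TNF-KO and 3.76 ± 0.32 in control spleens (SD, n = 4 each; adjusted p = 0.0921, limma), the nearest to passing of the 7 that fell in untreated spleen.

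Passing in both comparisons were 8 genes, 8.99% of the 89 and 14.5% of the 55, all in the same direction. Irs3, Paip1, Ccr1 and G6pc were higher, and Tcstv1, AF067061, Lars2 and Il13ra2 were lower. Tcstv1, named for its variable expression at the 2-cell stage of the embryo, read 0.48, 0.64, 0.30 and -0.51 in the TNF-KO spleens, against 2.07, 1.81, 2.19 and 2.11 in the control spleens, a difference of -1.82 ± 0.28 (SE; adjusted p = 0.00874, limma), and after CpG ODN it differed by -2.19 (adjusted p = 0.00124, limma). AF067061 read 1.04, 1.11, 0.86 and 0.50 in the TNF-KO spleens, against 2.52, 2.04, 2.58 and 2.49 in the control spleens and differed by -1.53 untreated and -1.55 after CpG ODN. In both genes all TNF-KO arrays were below all controls in both sets.

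Lars2, the mitochondrial leucyl-tRNA synthetase, differed by -0.77 untreated, and after CpG ODN it averaged -1.43 ± 0.14 in TNF-KO and -0.43 ± 0.18 in control spleens (SD, n = 4 each). Il13ra2, the decoy receptor of interleukin-13, differed by -1.18 and -1.43. Irs3 averaged 2.23 ± 0.32 in TNF-KO and 0.02 ± 0.82 in control spleens after CpG ODN, Paip1 -0.27 ± 0.51 in TNF-KO and -1.41 ± 0.08 in control spleens, G6pc 1.62 ± 0.63 in TNF-KO and 0.27 ± 0.32 in control spleens and Ccr1 3.43 ± 0.22 in TNF-KO and 1.63 ± 0.16 in control spleens (SD, n = 4 each). Without TNF-KO replicate 3, Tcstv1 and AF067061 had an untreated adjusted p of 0.0567, and for Lars2, Il13ra2 and G6pc 7 of the 8 fits that left out 1 array lost the call, with adjusted p-values up to 0.162, 0.206 and 0.16.

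Some of these 8 genes lie near each other in the RefSeq gene order (GRCm38.p6). On chromosome 13, Tcstv1 and AF067061 are neighbours among the measured genes, and Paip1 lies on the same chromosome with 5 measured genes between it and Tcstv1, of which 0 passed. Tcstv3, the next measured gene after AF067061 and a close relative of Tcstv1, read 0.74, 1.06, 0.57 and 0.20 in the TNF-KO spleens, against 2.06, 1.77, 1.89 and 1.39 in the control spleens and just missed the threshold (adjusted p = 0.0575, limma). Probes for Tcstv1 and Tcstv3, as related copies, may share signal. On chromosome 9, Lars2 and Ccr1 have 8 measured genes between them, of which 0 passed. Ccr2 lies beyond Ccr1, with 2 measured genes between these. Irs3, G6pc and Il13ra2 lie on chromosomes 5, 11 and X.

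**Figure D5:**
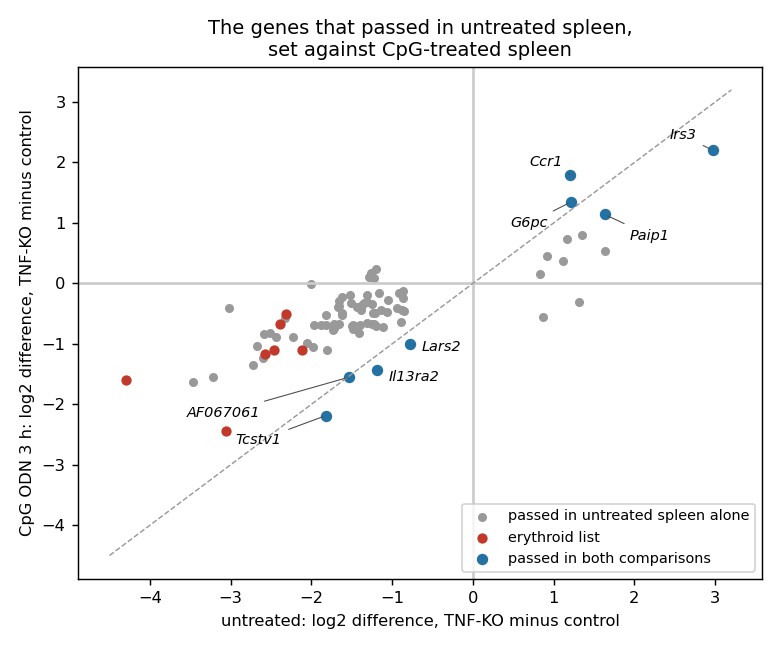
For the 89 genes that passed in untreated spleen, the log2 difference of TNF-KO minus control in untreated spleen (x axis) and 3 h after CpG ODN (y axis); the dashed line marks equal differences. The 8 genes that passed in both comparisons are blue and lie near the line. The erythroid genes, in red, are all below 0 on both axes and closer to 0 after CpG ODN. The genes were chosen on their x values, so smaller y values alone do not show a change.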

How the data were processed

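Spleen RNA labelled with Cy5 and reference RNA labelled with Cy3 were hybridised to two-colour arrays, 1 array per sample. The authors applied background subtraction, spot filters and lowess normalization, per the series text, and deposited log2 ratios, spleen divided by reference. Genome build and array annotation version are not given in the sources used here. Of 36607 probes 30750 had values; 26926 carried 1 gene symbol, 203 several and 9478 none, and symbols were updated through RefSeq gene IDs (26774 probes). Each array was centred on its median, and each of 14951 genes took its probe with most values, present on over 70% of the 16 C57BL/6 arrays. limma 3.58.1 (R 4.3.3) fitted 4 group means, with Benjamini-Hochberg adjustment; the number of arrays limits precision. On simulated data for the untreated comparison (14951 genes), 63% of changes of 1 log2 unit and 99% of changes of 2 were recovered, with 10 false calls among 172. These shares cannot be carried over to genes with a wide spread between arrays. Klf1 and Rhag, with SDs of 2.49 and 2.01 in untreated TNF-KO spleens (n = 4), differed by -3.18 and -3.22 and did not pass. A gene without a call is therefore not shown to be unchanged. Genes were named as the 15 largest rises and falls that passed with all TNF-KO arrays on 1 side of the control mean, follicle and TNF genes, list members that passed or had small p-values, and neighbours of Tnf; others are stated. Gene lists and members were chosen with earlier results of these data known. Alternatives changed the arrays fitted, centring, scaling, filters, probes, weights, variance model, threshold, blocks and covariate, and left out each array. Replicate numbers did not pair the arrays: deviations of same-numbered arrays correlated at 0.12, -0.09, 0.40 and 0.07. Deviations of TNF-KO and control arrays in the same run correlated at 0.046, 0.119 and -0.075.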

Additional observations from a re-analysis of the deposited data

Results flagged for a closer look

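In groups of 4 arrays, a value was marked when its gap to the nearest other array exceeded Dixon's 95% critical share of the group's range, which chance does in about 5% of groups. Of 199 groups tested, 23 were marked, 19 of them by TNF-KO replicate 4. The groups were the untreated TNF-KO and control arrays of the named genes and of the list means. Many of these genes were chosen on these data and vary together, so the 23 cannot be read against the 5%. That array was the highest of the TNF-KO arrays for the erythroid genes Rhd (5.22), Klf1 (5.84), Rhag (3.90), Ermap (3.43), Fech (2.53), Gata1 (2.04) and Tfrc (1.73), and for the erythroid mean (4.01). It was also highest for Irs4 (5.03), Dhrs11 (4.86), Pdzk1ip1 (3.84), Hemgn (3.07), Fn3k (2.98), Ackr1 (0.70) and Mki67 (0.36), for the cell cycle mean (-0.30) and for the mean of stress genes (-0.25). It was lowest for Ccl21a (4.49) and for the mean of TNF superfamily genes (0.38). This array was placed in an inferred run with no untreated control array, so that its run and its difference from the other TNF-KO arrays cannot be told apart. The run also held replicate 4 of both CpG-treated groups. Each was the highest of its group for the erythroid mean (3.50 in TNF-KO, 4.12 in control) and the cell cycle mean (-0.76 and -0.12). Each was the lowest for the TNF superfamily mean (0.60 and 0.62). Each was also the lowest for the stress mean (-0.32 and -0.14), where untreated TNF-KO replicate 4 was highest. A shift by run was not tested.

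Among controls, replicate 1 was highest for Cdr2 (3.74), replicate 3 was highest for Lta (1.69) and Ltb (2.51), and replicate 2 was lowest for the mean of dendritic cell genes (1.58). Lta and Ltb adjoin Tnf, which was not marked on that array.

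The genotype effect differed between CpG-treated and untreated spleen for Tnf, by -3.17 (adjusted p = 0.00183, limma), and for Stip1, by -1.42 (adjusted p = 0.042). For Tnf, all TNF-KO arrays were below all controls in both sets.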

How the results depend on the processing

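The count of 89 genes in untreated spleen, 12 higher and 77 lower, was 10 with the 8 arrays of the comparison fitted alone, 23 with arrays scaled to the same spread (6 higher and 17 lower), 59 with the pancreas mean as a covariate, 189 with array weights and 183 at an adjusted p under 0.1. It was 230 with the array run as a fixed block, 176 as a random block and 308 within the 3 shared runs. Leaving out 1 array gave between 2 and 379. Without both TNF-KO replicate 4 and control replicate 1, an alternative chosen after seeing the data, it was 247. With the replicate number as a block, 158 genes passed, 88 of the 89 among them; the numbers did not pair the samples. The count of 55 after CpG ODN was 22 with its 8 arrays alone, 164 with weights, 129 at an adjusted p under 0.1, 25 and 89 with the run as a fixed or random block, 1 within shared runs and between 19 and 101 without 1 array. Tnf gave -0.99 within shared runs and passed there; without 1 array it ranged from -1.02 to -0.79. With 1 Tnf probe analysed, no value came from another probe. Small differences changed sign: Cxcl13 to 0.20 with equal spread and 0.009 with the fixed run block, Mfge8 to 0.04 and 0.011 in the same fits, and Hbb-b1 to 0.18 with equal spread, 0.071 with weights, 0.20 within shared runs and 0.18 with the pancreas covariate. Leaving arrays out, Cxcl13 ranged from -0.33 to 0.27, Mfge8 from -0.35 to 0.11, Hbb-b1 from -0.53 to 0.30 and Cr2 from -0.009 to 0.46. Fits with fewer arrays have fewer degrees of freedom; other causes were not tested. Signal over background was not used here, so weakly hybridised probes could not be set apart.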

Other observations

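Over all genes, the difference between the genotype effects passed for 4, or 0.0268% of those tested. Beside Tnf and Stip1 these were Olfml1, an olfactomedin-like secreted protein, and Kazald1, a secreted protein with a Kazal domain, neither of which passed in untreated spleen. Olfml1 differed by 1.73 between TNF-KO and control spleens after CpG ODN and by -0.75 untreated (adjusted p = 0.00976 for the difference, limma). Kazald1 differed by 1.41 after CpG ODN and by -0.33 untreated (adjusted p = 0.0345, limma).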
